A study of Drosophila melanogaster with 8 samples.

Results

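Drosomycin (Drs) is an antifungal peptide that the fly's fat body secretes into the hemolymph, and it gives its name to a family of 7 genes on chromosome arm 3L, Drs and the Drosomycin-like genes Drsl1 to Drsl6. Metchnikowin (Mtk), an unrelated proline-rich peptide active against fungi and bacteria, is described beside them. These 8 genes were chosen by symbol, out of the 17411 genes in the count tables. RNA was profiled in cuticle with attached fat body from adult Drosophila melanogaster females, 1 week old. The control group (n = 4 libraries) carried yolk-Gal4 over w1118, and the 9G8 RNAi group (n = 4) carried yolk-Gal4 driving a 9G8 hairpin, so all flies had the driver and only the second group the hairpin. The yolk-Gal4 driver uses yolk protein control sequences, which act in the adult female fat body, and 9G8 is an SR protein, a class of splicing factors, encoded by x16. The comparison asks which transcripts differ when 9G8 is targeted. No control carried a hairpin against another gene, so the insertion and the strain background cannot be told apart from the targeting of 9G8.

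In the fat body, peptide genes of this kind are switched on by NF-κB factors at the end of the Toll and Imd pathways. Fungi and many Gram-positive bacteria lead to cleavage of Spätzle, the Toll ligand, and Toll then releases Dif and Dorsal from their inhibitor Cactus. Imd acts through Relish and drives chiefly antibacterial peptides such as the diptericins. Drs is a classic readout of Toll, Mtk responds to both pathways, and Drsl3 is known from the gut, where the JAK-STAT pathway induces it. Drs is also expressed without infection in the spermathecae, the sperm stores of the female reproductive tract.

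Library totals ran from 25396063 to 36181492 counts. The target came first as a check of the labels: x16 was at 60.4, 65.6, 325.5 and 145.1 CPM in controls 1 to 4 and at 198.6, 34.7, 103.1 and 49.5 CPM in 9G8 RNAi 1 to 4, where CPM is the usual count relative to library size, scaled by TMM factors. These groups overlapped, and a lower x16 level was not detectable (log2 fold change -0.63, SE 0.63, edgeR quasi-likelihood adjusted p = 0.862). Germline markers summed to 71.4, 114.6, 608.5 and 359.8 CPM in controls 1 to 4, the same order as x16. In 9G8 RNAi 1 to 4 they summed to 464.6, 233.2, 205.2 and 159.9 CPM. There 9G8 RNAi 1 was highest for both, but 9G8 RNAi 2 was lowest only for x16. The part of germline RNA in the x16 level was not tested, so the level in fat body alone is not known. Of the 13 fat body markers in the files, none was at 0 in all libraries. Their summed level was 6920 to 10956 CPM in controls and 12427 to 21405 CPM in 9G8 RNAi, so RNA of these markers was present in every library. The yolk protein genes Yp3 (means of 2828 and 5378 CPM) and Yp2 (1651 and 5013 CPM) made up much of it. The markers did not move together. Of 11 tested, 1 was higher (Yp2, log2 fold change 1.60, SE 0.40, edgeR adjusted p = 0.049). Lsp2 was lower (-2.53, SE 0.53, edgeR adjusted p = 0.0224), and 9 did not pass.

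All 8 members are genes of 1 exon and 1 transcript on BDGP6. Drsl2, Drsl3, Drsl4 and Drsl5 lie head to tail on the plus strand of 3L, at 3314349-3314681, 3314996-3315355, 3315620-3315942 and 3316781-3317144, with gaps of 314, 264 and 838 bases. Drsl1 (3335579-3335788) and Drsl6 (3336032-3336418) sit on the minus strand, and Drs (3369556-3369942, FBgn0283461) lies on the plus strand 33137 bases beyond Drsl6. Mtk (FBgn0014865) lies on 2R at 15408846-15409113, inside the span of CG43729 on the same strand, with 0 bases shared with its exons. The annotated precursors of the 7 family members have 69 to 72 residues and that of Mtk has 52. The handling of reads that match more than one gene is not given in the sources used here, so counts of close copies within the family are uncertain where they share reads.

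Transcripts of Drsl2 and Drsl5 fell in 9G8 RNAi, by 49.6-fold and 34.4-fold. No other member passed the test, and no member rose. Among the 9846 genes tested, 3.21% changed at an adjusted p under 0.05, 2.21% being lower and 0.995% higher. At an unadjusted p under 0.05 were 1267 of the 9846 and all 6 members tested. The libraries of the genotypes did not overlap for 5 of the 8 members, all lower in 9G8 RNAi, while 5.78% of tested genes were apart with 9G8 RNAi lower and 8.73% in either direction. Of the 8 members, 6 passed the low-count filter. Drsl3 reached the filter's level of 0.312 CPM in 4 controls and 0 9G8 RNAi libraries, and Drsl2 in 4 and 1. These genes thus entered the test through the group where they were high.

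Drsl5 encodes a Drosomycin-like secreted peptide. Its transcript was at 589.5, 341.6, 498.3 and 547.1 CPM in controls 1 to 4. In 9G8 RNAi 1 to 4 it was at 7.47, 2.61, 7.77 and 39.9 CPM. Every control lay above every 9G8 RNAi library, and the lowest control was 8.57 times the highest 9G8 RNAi library. Drsl5 also varied least among the controls, with a coefficient of variation of 21.9%, against 46.7% to 80.9% for the other 5 tested members. It fell from 494.1 ± 108.3 to 14.4 ± 17.1 CPM (SD, n = 4 each), a log2 fold change of -5.10 (SE 0.78, edgeR adjusted p = 0.00422) or 34.4-fold.

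Drsl2, the first gene of the row, was scarcer. Controls 1 to 4 held 616, 198, 275 and 1070 counts, or 24.3, 7.17, 7.69 and 31.9 CPM. The 9G8 RNAi libraries held 9, 7, 7 and 18 counts, or 0.218, 0.151, 0.229 and 0.936 CPM. The groups did not overlap, and the lowest control was 7.67 times the highest 9G8 RNAi library. Drsl2 fell from 17.8 ± 12.3 to 0.383 ± 0.370 CPM (SD, n = 4 each; log2 fold change -5.63, SE 0.76, edgeR adjusted p = 0.00245), or 49.6-fold. Both calls held in each of the 18 alternative fits, with adjusted p-values of up to 0.0386 for Drsl2 and 0.0485 for Drsl5.

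**Figure D1:**
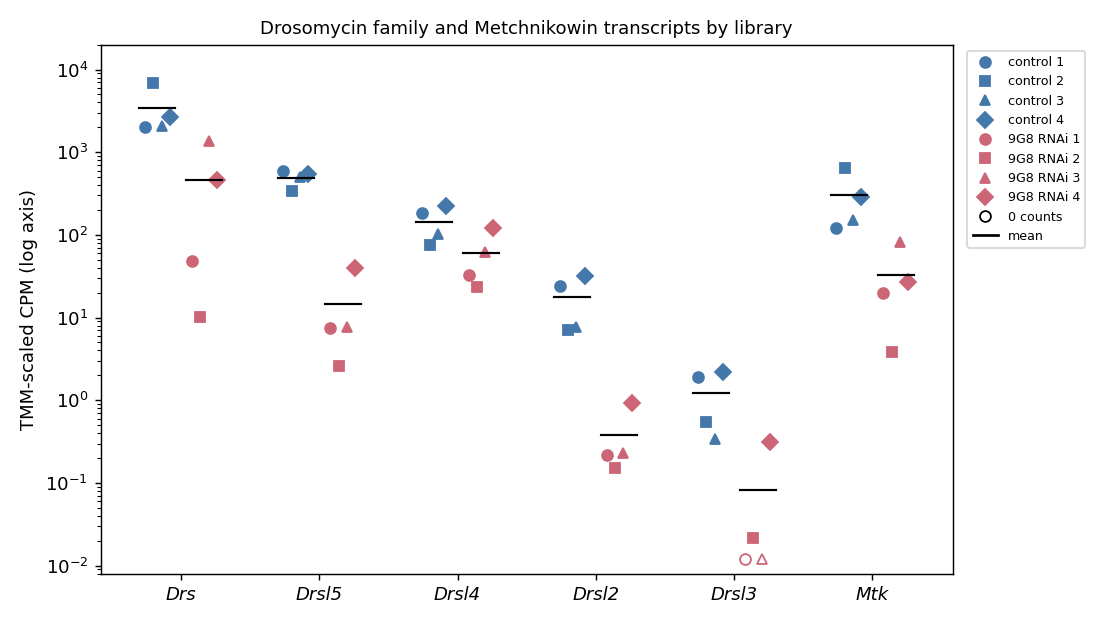
TMM-scaled CPM of the 6 tested genes (log axis) in the 4 control and 4 9G8 RNAi libraries, 1 symbol per replicate number, with bars at the group means and open symbols for libraries with 0 counts. Drsl5 controls sit between 341.6 and 589.5 CPM and the 9G8 RNAi libraries between 2.61 and 39.9 CPM, while Drs spreads from 10.1 to 1348 CPM within 9G8 RNAi.

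Drsl3 and Drsl4 lie between those genes. Drsl3 was near the detection limit, with 48, 15, 12 and 73 counts in controls and 0, 1, 0 and 6 counts in 9G8 RNAi. Its groups met closely, the lowest control (0.336 CPM) being 1.08 times 9G8 RNAi 4 (0.312 CPM), and it did not pass (log2 fold change -4.26, SE 1.08, edgeR adjusted p = 0.0563). Without control 3 it passed (log2 fold change -4.56, adjusted p = 0.0473), as it did without 9G8 RNAi 4 (-6.70, 0.00461), and also with limma-voom, with no low-count filter, with the gut score as a covariate and in the fit with the replicate number as a block.

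Drsl4 had the smallest log2 fold change of the 6 tested members. It was at 181.5, 76.2, 101.1 and 220.6 CPM in controls 1 to 4 and at 32.8, 23.7, 62.1 and 122.4 CPM in 9G8 RNAi 1 to 4. The groups overlapped, since 9G8 RNAi 4 lay above controls 2 and 3. The means were 144.9 ± 67.6 and 60.3 ± 44.5 CPM (SD, n = 4 each), a log2 fold change of -1.27 (SE 0.53, edgeR adjusted p = 0.310), and Drsl4 passed in none of the 18 alternative fits.

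Drs was the most abundant member in controls and varied widely in 9G8 RNAi. The controls were at 1991, 6935, 2102 and 2694 CPM. The 9G8 RNAi libraries 1 to 4 were at 48.9, 10.1, 1348 and 460.0 CPM, a 133-fold range. Each 9G8 RNAi library lay below each control, but 9G8 RNAi 3 came within 1.48-fold of control 1. The means were 3430 ± 2356 and 466.7 ± 621.6 CPM (SD, n = 4 each). The log2 fold change of -2.88 (SE 1.10) did not pass by edgeR (adjusted p = 0.247), nor in any of the 18 alternative fits, where it ran from -4.44 to -2.28. Leaving out control 2 gave -2.28 (adjusted p = 0.528) and leaving out 9G8 RNAi 3 gave -4.31 (adjusted p = 0.0998).

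Mtk had a like order of libraries. It was at 120.6, 651.1, 150.1 and 283.8 CPM in the controls. In 9G8 RNAi 1 to 4 it was at 19.6, 3.88, 82.6 and 26.7 CPM. Control 2 was again the highest and 9G8 RNAi 2 the lowest, and the groups were 1.46-fold apart at their nearest. Mtk was at 301.4 ± 243.7 and 33.2 ± 34.3 CPM (SD, n = 4 each; log2 fold change -3.18, SE 0.82, edgeR adjusted p = 0.0608). It passed without 9G8 RNAi 3 (-4.17, adjusted p = 0.0281), with DESeq2 (2.96e-04), with limma-voom (0.0369) and with no low-count filter (0.0321).

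Drsl1 and Drsl6 were not detectable above a few reads. Drsl1 had 4 counts in all controls and 5 in all 9G8 RNAi libraries, and Drsl6 had 3 and 3. Neither was tested.

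**Figure D2:**
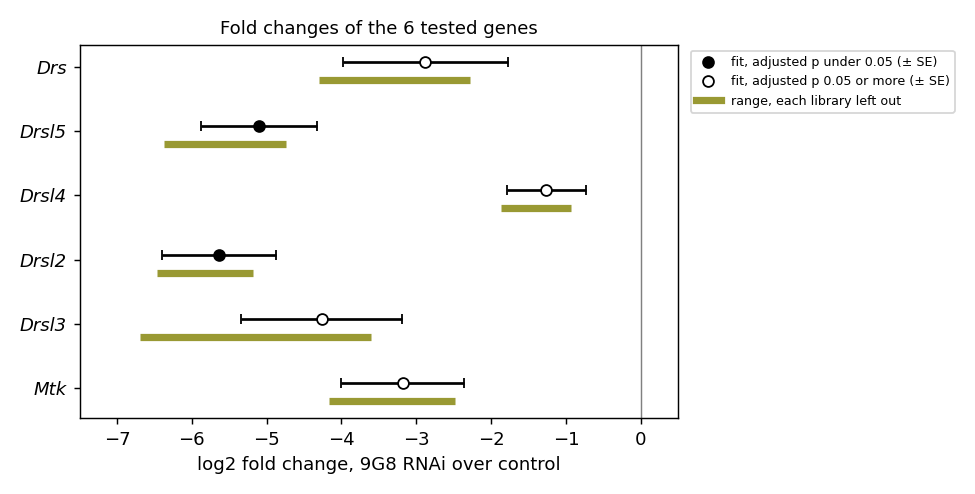
Log2 fold changes of 9G8 RNAi over control for the 6 tested genes with standard errors (filled where the edgeR adjusted p was under 0.05), and the range when each of the 8 libraries was left out in turn. All 6 values lie below 0, from -5.63 for Drsl2 to -1.27 for Drsl4, and no library left out moved a value past 0.

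Because Drsl4 lies 264 bases from Drsl3 and 838 from Drsl5, ratios between members within a library were compared as well. Such ratios were chosen after the levels were seen. They use the same counts as the fold changes above, so their p-values are not separate support for a difference between members. On the scale of CPM per kb of gene length, Drsl5 was at 2.88, 3.98, 4.37 and 2.20 times the level of Drsl4 in controls 1 to 4 and at 0.202, 0.0976, 0.111 and 0.289 times in 9G8 RNAi 1 to 4. The order of these neighbours was thus opposite in the genotypes, in every library. Between genotypes the log2 ratio of Drsl5 to Drsl4 differed by -4.34 (exact two-sided permutation test, p = 0.0286, the smallest that 70 assignments of 4 against 4 allow) and that of Drsl2 to Drsl4 by -3.90 (same p). Over the 15 ratios between the 6 tested members, 5 reached that p, all of them among Drsl2 to Drsl5, and their adjusted p was 0.0857. The ratios of Drsl3 to Drsl2, Drsl4 and Drsl5 were among these 5. The log2 ratios used a prior count of 2, added before the log. Drsl3 had 0, 1, 0 and 6 counts in 9G8 RNAi, so its ratios there rest partly on that prior. The ratio of Drs to Mtk differed by -0.92 between genotypes (exact p = 0.400, adjusted p = 0.584), with overlapping groups. The ratio of Drsl5 to Drsl2 differed by -0.44 (exact p = 0.429, adjusted p = 0.584).

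**Figure D3:**
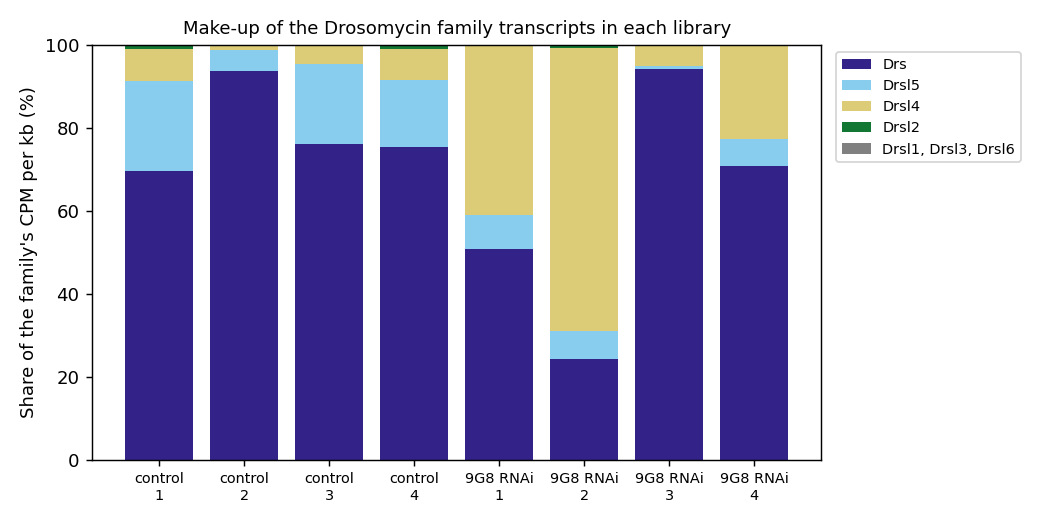
Share of each member in the summed CPM per kb of the 7 Drosomycin family genes, 1 bar per library. Drs holds 69.5% to 93.7% in controls and 24.3% to 94.2% in 9G8 RNAi, Drsl5 holds 4.91% to 21.9% and 0.577% to 8.23%, and Drsl4 holds 1.23% to 7.59% and 5.20% to 68.3%.

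Levels per kb placed Drs far above its relatives in controls, at 8864 ± 6089 CPM per kb, the 16th highest of the tested genes. Drsl5 followed at 1358 ± 298, Mtk at 1125 ± 909, Drsl4 at 448.6 ± 209.3, Drsl2 at 53.4 ± 37.1 and Drsl3 at 3.44 ± 2.59 CPM per kb (SD, n = 4). In that order the ranges of Drsl5 and Mtk overlapped, as did those of Mtk and Drsl4, while the other neighbours were apart. In 9G8 RNAi the order was Drs (1206 ± 1606), Drsl4 (186.6 ± 137.9), Mtk (123.8 ± 127.9), Drsl5 (39.6 ± 47.0), Drsl2 (1.15 ± 1.11) and Drsl3 (0.231 ± 0.424). Here Drsl5 and Drsl2 were the only neighbours whose ranges did not overlap. Together the 7 family genes took 0.230% to 0.607% of all counts in controls and 0.00560% to 0.126% in 9G8 RNAi. These genes are short, so a level per kb also depends on how fragments near their ends were counted.

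None of the other genes around the cluster passed the test. Over all tested genes 3.21% changed, and 1267 of 9846 had an unadjusted p under 0.05. With as few as 11 genes, 0 called cannot be told from that share. Within 20 kb of the outermost family members lay 16 other genes, of which 11 were tested and 0 changed by edgeR. At an unadjusted p under 0.05 were 2 of the 11, and 0 changed in every alternative fit, DESeq2 and limma-voom included. Their log2 fold changes ran from -0.94 to 0.78, with a median of -0.11. The groups were apart for 2 of these 11 genes, and for 8.73% of all tested genes. The most abundant were PHGPx, a glutathione peroxidase gene (239.3 ± 47.5 and 410.0 ± 129.7 CPM, log2 fold change 0.78, SE 0.35, edgeR adjusted p = 0.362), and CG12012 (175.5 ± 32.9 and 112.9 ± 62.2 CPM, -0.64, SE 0.40, adjusted p = 0.629). ZnT63C, a zinc transporter gene that ends just before Drsl2, had a log2 fold change of -0.52 (SE 0.31, edgeR adjusted p = 0.602).

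**Figure D4:**
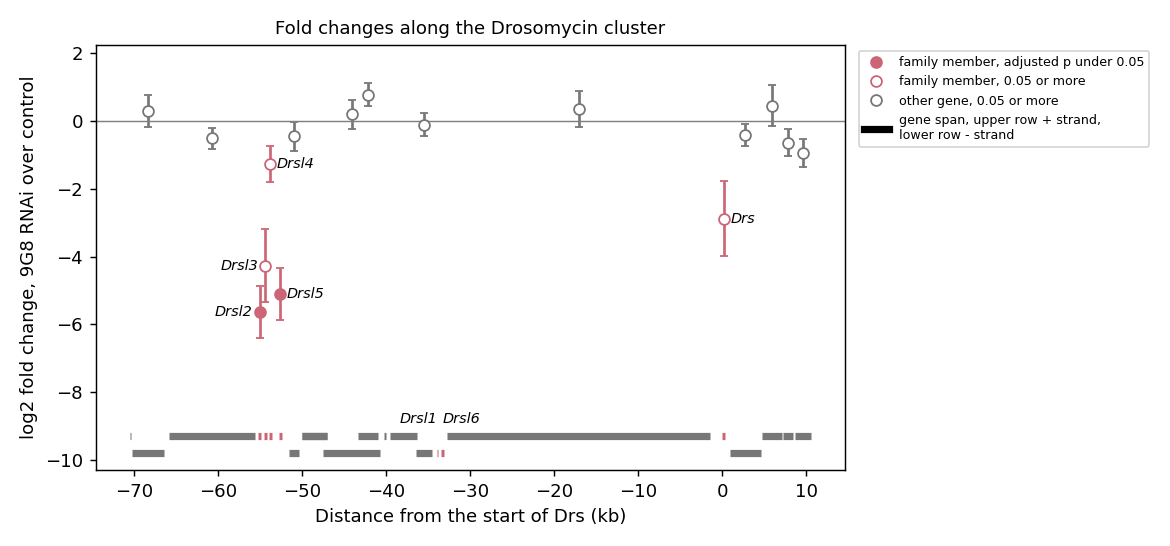
Log2 fold changes of 9G8 RNAi over control with standard errors for tested genes along the Drosomycin cluster, by distance in kb from the start of Drs, with the spans of all genes below. The 11 other tested genes lie between -0.94 and 0.78, and among the family genes Drsl2 (-5.63) and Drsl5 (-5.10) are filled as called.

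Within a genotype, Drs varied with Mtk, and Drsl4 varied with Drsl2 and with Drsl5. After the mean of each genotype was removed, Drs and Mtk followed each other over the 8 libraries (Pearson r = 0.91, exact permutation within genotypes, p = 0.0017, adjusted p = 0.013 over 15 pairs; Spearman rho = 0.90, p = 0.0035, adjusted p = 0.026). Without 9G8 RNAi 2 and 3, the libraries farthest from the median, r was 0.65. Drsl2 followed Drsl4 (r = 0.91, exact p = 0.0017, adjusted p = 0.013; rho = 0.88, p = 0.0052, adjusted p = 0.026; r = 0.78 without control 4 and 9G8 RNAi 4). Drsl4 followed Drsl5 (r = 0.86, exact p = 0.0035, adjusted p = 0.017; rho = 0.95, p = 0.0035, adjusted p = 0.026; r = 0.77 without 9G8 RNAi 2 and 4). Drsl2 and Drsl5 had r = 0.75 (exact p = 0.0052, adjusted p = 0.0195; rho = 0.79, p = 0.0139, adjusted p = 0.0521; r = 0.50 without control 4 and 9G8 RNAi 4). The deviations of Drsl2 in 9G8 RNAi rest on 9, 7, 7 and 18 counts. With a prior count of 0.5 its r was 0.93 with Drsl4 and 0.78 with Drsl5. No pair of Drsl3 with Drsl2, Drsl4 or Drsl5 passed, with adjusted p-values of r (exact permutation) from 0.104 with Drsl2 to 0.231 with Drsl5. No pair of Drs or Mtk with a Drosomycin-like gene passed either. Drs and Drsl5 had r = 0.57 (exact p = 0.408, adjusted p = 0.680; rho = 0.38, p = 0.552, adjusted p = 0.784). That value joins unlike patterns, since among controls the library with the most Drs (control 2) had the least Drsl5 and the one with the least Drs (control 1) the most, while 9G8 RNAi 2 had the least of both in its group. Mtk and Drsl2 had r = 0.05 (exact p = 0.908, adjusted p = 0.908; rho = 0.12, p = 0.799, adjusted p = 0.928). Control 2 shows the contrast, with the highest Drs and Mtk of all libraries and the lowest Drsl2, Drsl4 and Drsl5 of the controls. The 8 libraries share the 2 genotypes and the tissue markers given below, and p = 0.0017 is the smallest that the 576 permutations can give. These correlations were planned as a description without a test, so their p-values are an addition to the plan.

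**Figure D5:**
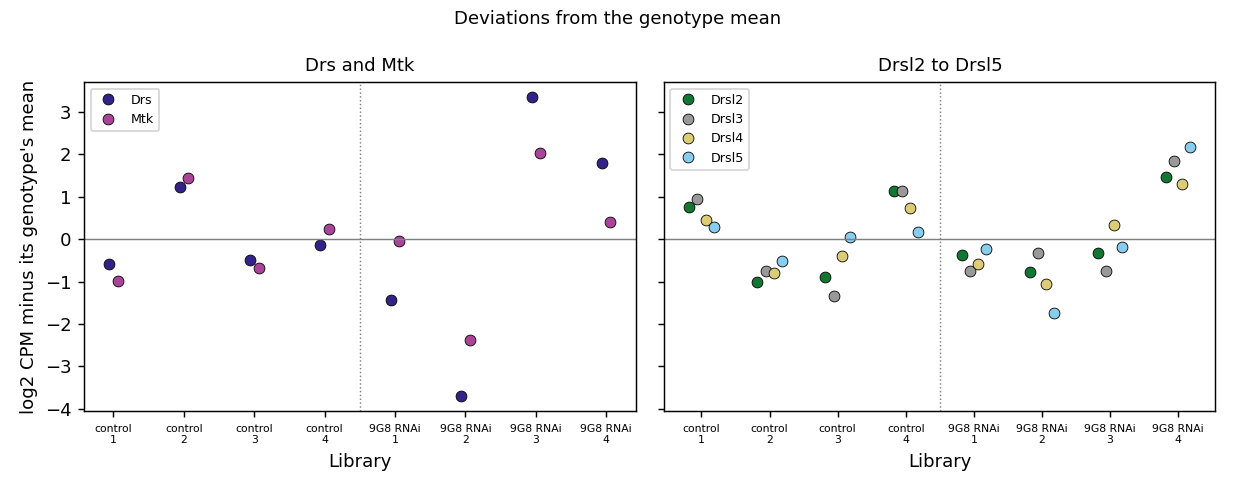
Deviation of log2 CPM (prior count of 2) from the mean of its genotype, by library, for Drs and Mtk on the left and Drsl2 to Drsl5 on the right. Drs and Mtk are highest among controls in control 2 and among 9G8 RNAi libraries in 9G8 RNAi 3, whereas the 4 Drosomycin-like genes are highest in 9G8 RNAi 4.

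The genes with the most similar deviations differed between members. Of 6036 tested genes with a mean of at least 5 CPM, those most like Mtk were IM23 (BomBc1, r = 0.99), IM14 (Dso2, r = 0.99) and IM1 (BomS1, r = 0.97), all members of the list of Toll effectors. IM14 fell (log2 fold change -2.97, SE 0.71, edgeR adjusted p = 0.0448), and IM23 (-3.14, 0.122) and IM1 (-2.65, 0.0694) did not pass. Those most like Drs were CG14907 (r = 0.97), Sodh-1 (r = 0.95) and the odorant-binding protein gene Obp56d (r = 0.95), none of which passed. Those most like Drsl2 were CG43095 (r = 0.95), Cpr49Ac (r = 0.93) and CG15210 (r = 0.92). Those most like Drsl4 were CG14406 (r = 0.98), CG15210 (r = 0.98) and CG31205 (r = 0.97), and those most like Drsl5 were CR45757 (r = 0.96), NijC (r = 0.95) and Cpr49Aa (r = 0.95). Of these, CG43095 (-3.78), the cuticle protein genes Cpr49Ac (-6.54) and Cpr49Aa (-6.17), CG31205 (-3.92) and CR45757 (-4.18) fell, with log2 fold changes in parentheses and edgeR adjusted p-values from 0.000601 to 0.00533. CG15210, CG14406 and NijC did not pass. Each r was over 8 libraries. The genes named are the first 3 of 6036 for each member, so the search itself favours high values. Whether these r exceed what such a search gives was not tested.

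The pathways that feed these genes are given from lists of known components. Over all tested genes the median log2 fold change was 0.01, with 2.21% lower and 0.995% higher at an edgeR adjusted p under 0.05. Of 13 tested genes that act upstream of Toll in recognition and proteolysis, 1 fell, 0 rose and 12 did not pass (median -0.97). At an unadjusted p under 0.05 were 6 of the 13. The gene that fell was PGRP-SD, a peptidoglycan recognition protein (144.2 ± 43.4 and 16.6 ± 21.7 CPM, SD, n = 4 each, log2 fold change -3.12, SE 0.75, edgeR adjusted p = 0.0444), and its list held 2 lower genes with DESeq2 or without 9G8 RNAi 4. It held 0 without control 1, 2 or 3 or 9G8 RNAi 1 or 2, without control 3 and 9G8 RNAi 2 together, with RLE factors, with a mean CPM of at least 1 and with the gut covariate. Of 12 genes from the Toll receptor to its NF-κB factors, 0 changed by edgeR, 0 at an unadjusted p under 0.05 and 0 by DESeq2 or limma-voom (median -0.07). Of these, cact, the NF-κB inhibitor and itself a Toll target, had control and 9G8 RNAi levels of 24.0 ± 12.1 and 23.3 ± 9.17 CPM (log2 fold change -0.04, SE 0.41, edgeR adjusted p = 0.988). Of 16 Toll effectors tested, 6 fell and 10 did not pass (median -2.68). All 16 log2 fold changes were negative, and 14 genes had an unadjusted p under 0.05. The list summed to 19273 to 56703 CPM in controls and 2388 to 11949 CPM in 9G8 RNAi. CG18067 (Bbd) had the smallest adjusted p of them (2702 ± 1559 and 346.2 ± 157.4 CPM, log2 fold change -2.96, SE 0.50, edgeR adjusted p = 0.00691). Others that fell were IM4 (Dso1, -3.12), the Bomanin gene CG15065 (BomS5, -3.08) and the Baramicin gene CG33470 (BaraA1, -3.29). As for Drs and Mtk, control 2 had the highest and 9G8 RNAi 2 the lowest sum. The count of effectors that fell was 11 with DESeq2 and 7 with limma-voom. It was 2 without control 2, without 9G8 RNAi 1, without control 3 and 9G8 RNAi 2 together or with the gut covariate, 3 without 9G8 RNAi 2 or with the spermatheca covariate, and 0 with the replicate block.

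Of 19 Imd signalling genes and of 12 antibacterial peptide genes, 0 changed by edgeR (3 and 4 at an unadjusted p under 0.05, 1 and 0 by DESeq2, 1 and 0 by limma-voom; medians -0.13 and 0.26). The antibacterial peptide genes were most abundant in 9G8 RNAi 3, at a sum of 986.3 CPM, against 18.4 to 83.7 CPM in the other 9G8 RNAi libraries and 89.3 to 428.9 CPM in controls. The Imd target PGRP-SC2, which degrades peptidoglycan, averaged 9453 ± 2828 and 2084 ± 2307 CPM (log2 fold change -2.18, SE 0.65, edgeR adjusted p = 0.108). 9G8 RNAi 3 was the library with the highest Drs, Mtk and antibacterial peptide levels of its group. Without it 2 antibacterial peptide genes were called lower, in a fit that called 122 genes lower in all. Of 14 JAK-STAT genes 3 fell (median -1.81), namely the feedback inhibitor Socs36E (-2.60), the cytokine upd3 (-2.88) and the stress peptide TotA (-3.01). At an unadjusted p under 0.05 were 9 of the 14. The count of JAK-STAT genes that fell was 6 with DESeq2, 4 with limma-voom and 7 without 9G8 RNAi 4. It was 2 with the replicate block or without control 4 and 9G8 RNAi 1, and 1 without 9G8 RNAi 1, 2 or 3, without control 3 and 9G8 RNAi 2, or with the spermatheca covariate.

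Markers of other tissues differed between libraries too. Spermatheca markers (7 in the files, 6 tested, 0 changed by edgeR, 1 at an unadjusted p under 0.05, 0 by DESeq2 or limma-voom) summed to 128.0, 102.8, 29.5 and 326.1 CPM in controls 1 to 4. In 9G8 RNAi 1 to 4 they summed to 0.508, 0.582, 260.5 and 61.9 CPM, and no marker was at 0 in all libraries. The order of Drs within 9G8 RNAi was nearly the same: 9G8 RNAi 1 and 2 had the lowest Drs and spermatheca sums under 1 CPM, and 9G8 RNAi 3 had the most of both. The controls did not show that order. Control 4 had the most spermatheca RNA and Drs at 2694 CPM, control 2 had the most Drs with a sum of 102.8 CPM, and control 3 had the smallest sum with more Drs than control 1. Drs was at 1.73 and 1.80 times Mtk per kb in 9G8 RNAi 1 and 2, and at 6.58 to 11.9 times in the other 6 libraries. The part of spermathecae in the level of Drs was not tested. With the spermatheca score as a covariate, an alternative added after the data were seen, the log2 fold change of Drs was -2.79 (SE 0.73, edgeR adjusted p = 0.110). In that fit Drsl2 (-4.90, 0.0106) and Drsl5 (-4.71, 0.0106) were still called.

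Gut markers (30 in the files, 27 tested, 4 higher, 1 lower, median log2 fold change 1.93) summed to 298 to 24517 CPM in controls and 20373 to 52322 CPM in 9G8 RNAi. Of the 27 gut markers tested, 16 had an unadjusted p under 0.05. With the gut score as a covariate, Drsl2 (-6.35, edgeR adjusted p = 0.00535) and Drsl5 (-5.28, 0.0158) were still called. Hemocyte markers (13 tested, 2 lower) summed to 423.3 to 793.2 CPM in controls and 247.8 to 447.5 CPM in 9G8 RNAi, with none at 0 in all libraries. All 13 had a negative log2 fold change, 6 of them at an unadjusted p under 0.05. Tracheal markers (8 tested, 0 changed by edgeR, 1 at an unadjusted p under 0.05, 1 by DESeq2 and 1 by limma-voom) summed to 51.2 to 88.7 and 39.4 to 68.3 CPM. Malpighian tubule (5 tested), germline (13) and muscle markers (14) held 0 changed genes by edgeR, 0 at an unadjusted p under 0.05 and 0 by DESeq2 or limma-voom. The germline sum still varied widely within each genotype, from 71.4 to 608.5 CPM in controls and from 159.9 to 464.6 CPM in 9G8 RNAi. Of 16 eggshell markers 1 was higher, and 6 had an unadjusted p under 0.05. The eggshell sum was 8606 CPM in control 4, 8414 CPM in 9G8 RNAi 1 and 15.5 to 2525 CPM elsewhere. The part of spermathecae, gut, hemocytes, trachea and egg chambers in the levels of the 8 members was not tested. The fits with a spermatheca or gut covariate do not measure it. In RNA from whole tissue, fewer cells of a type and less RNA per cell cannot be told apart.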

How the data were processed

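RNA-seq measured polyadenylated RNA in 4 control and 4 9G8 RNAi libraries. Each file the authors deposited holds raw read counts per gene for 1 library, in the layout of featureCounts per the file headers. The submitters' processing notes name build BDGP6, STAR 2.5.2b, Trimmomatic 0.36 and, for featureCounts, Subread 1.5.2. Sources used here give neither the strand setting nor the annotation release, nor how reads matching more than one gene were handled.

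From the counts, edgeR 4.0.16 in R 4.3.3 (filterByExpr by group, TMM factors, quasi-likelihood F test) compared the genotypes over 9846 of 17411 genes, with Benjamini-Hochberg adjustment over all of them and a threshold of 0.05. SEs derive from the F statistic. CPM and CPM per kb were computed from the deposited counts and gene lengths. With a common biological coefficient of variation of 0.500, spread between libraries, not counting error, limits all but the scarcest genes. The labels do not say that libraries of a genotype came from separate cultures, so the p-values cover only spread among these libraries, which may be technical. Limma 3.58.1 (voom), DESeq2 1.42.0, RLE factors, other filters, covariates, a replicate block and libraries left out were alternatives. The count test was tested on simulated data. Members, lists and tests were chosen with earlier results of these data known. Named genes were the members, the target, up to 4 called or 2 most abundant genes of a list (not all are printed), the 2 most abundant genes around the cluster, and the 3 genes most like each member of at least 5 CPM. ZnT63C was added for its position after its values were seen. A later Ensembl annotation of BDGP6 gave identifiers, and RefSeq newer symbols. Replicate numbers were not taken as pairs.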

Additional observations from a re-analysis of the deposited data

Results flagged for a closer look

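In groups of 4 libraries, 4 of the 12 groups of CPM values (6 genes in 2 genotypes) had a library flagged by Dixon's test. Its gap to the nearest other exceeded the 95% critical value as a share of the group's range. For normally distributed values, about 1 in 20 groups passes that limit. The CPM values were used without a log and all 4 flags were high libraries, so that rate may not hold here. Drs in controls was flagged for control 2, with a gap of 0.858 of the range. In 9G8 RNAi, library 4 stood above the others for Drsl2 (0.901 of the range), Drsl3 (0.931) and Drsl5 (0.862). The flags of 9G8 RNAi 4 concern genes that lie beside each other and may share reads, and they are not independent of each other.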

How the results depend on the processing

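Drsl2 and Drsl5 were called in each of the 18 alternative fits, and Drs and Drsl4 in none. No alternative gave a member a fold change of the opposite sign. Mtk passed with DESeq2 (-3.14), limma-voom (-3.59) and no low-count filter (-3.09), and left out one at a time the libraries gave -4.17 to -2.48. Drsl3 passed with limma-voom (-4.63), no filter (-4.12), the replicate block (-4.65) and the gut covariate (-5.46), and gave -6.70 to -3.60 with a library left out. With a mean CPM of at least 1 it was not tested. Called members numbered 4 with limma-voom and with no filter.

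Over all genes 316 changed, 218 of them lower. Changed genes numbered 523 with DESeq2, 141 with the replicate block, 200 with the gut covariate, 135 with the spermatheca covariate, 96 without control 3 and 9G8 RNAi 2 together, and 162 to 504 with a library left out. Lower genes numbered 349 with DESeq2, 104 with the block, 87 with the spermatheca covariate, 68 without control 3 and 9G8 RNAi 2, 126 without control 4 and 9G8 RNAi 1, and 105 to 380 with a library left out. The cause was not tested. With shared replicate numbers as a block, 141 genes changed. Same-numbered libraries deviated in opposite directions or not together (correlations over genes from -0.59 to -0.02), which gave no sign of pairing. Whether they shared a batch is not in the labels and was not tested. Drsl1 and Drsl6 had too few counts to be tested at this depth.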
